A study of Homo sapiens with 14 samples.

Results

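Long noncoding RNAs and hosts of small nucleolar RNAs (snoRNAs) were followed across 3 assays in control and ADAR1 knockdown (KD) cells. The members were the rows of the deposited RPKM table whose gene symbol was MALAT1, NEAT1, H19, GAS5, TUG1, SNHG1, SNHG3, SNHG5, SNHG8 or SNHG12. All 10 had a row, out of 21574 rows in the table. RPKM is the number of reads on a gene relative to its length in kilobases and to the reads of the library, so that it can be compared between genes of different length.

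The study asked how RNA structure changes when ADAR1, the enzyme that deaminates adenosine to inosine in double-stranded RNA, is depleted. Cells labelled as HepG2, an established line from a human liver carcinoma, received scrambled siRNA (control) or siADAR1 (KD). The labels call the transfection stable, and the methods give a silencing time of 48 h. The 14 samples were 8 PARS-seq, 4 Ribo-seq and 2 RNA-seq libraries. In PARS-seq, poly(A) RNA was cut with S1 nuclease, which cuts unpaired bases, or with RNase V1, which cuts paired bases, and each condition had 2 replicates for each enzyme. The RPKM table gives for each PARS-seq replicate the authors' mean over its S1 and its V1 library. Ribo-seq, which sequences fragments protected by ribosomes, had 2 libraries in each condition, and RNA-seq had 1 library in each condition. The paper calls the PARS-seq and Ribo-seq replicates biological, but the labels do not say whether they came from separate cultures, so that p-values measure the spread between these samples.

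A long noncoding RNA (lncRNA) is a transcript that is not known to be translated into a conserved protein. Some, such as MALAT1 and NEAT1, act in nuclear bodies. snoRNA hosts carry snoRNAs in their introns, which guide the chemical modification of ribosomal RNA, and several of their spliced RNAs are bound by ribosomes and removed by nonsense-mediated decay. Many snoRNA hosts start with a pyrimidine tract, the 5′ TOP element, that they share with ribosomal protein mRNAs. Double-stranded stretches of lncRNAs, often formed by inverted repeats, are known substrates of ADAR1.

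Some facts about the libraries touch the values below. The label HepG2 was not borne out by its markers. ALB, AFP, APOA1, APOB, SERPINA1, TF, TTR, FGB and HNF4A are genes that HepG2 is known for, and their summed level was 0 to 0.928 RPKM in the 10 columns. ALB was listed at 0 in 7 columns and reached at most 0.0442 RPKM. The fibroblast markers COL1A1, COL3A1 and DCN summed to 30.4 to 117 RPKM, and their sum in PARS-seq was lower in KD (87.3 and 67.9 RPKM) than in control (117 and 102 RPKM). The collagen genes carried most of the sum, with DCN at 0.331 to 1.57 RPKM in PARS-seq and 0.12 to 7.61 RPKM in Ribo-seq. Of the 2 fibroblast rows tested in PARS-seq, 0 were called by limma, against 15.5% of all genes tested. The sum was 71.5 RPKM in control and 49.0 RPKM in KD in RNA-seq, 37.7 and 30.4 RPKM in Ribo-seq replicate 1, and 45.8 and 47.8 RPKM in Ribo-seq replicate 2. The part of these differences in the results below was not tested. The lists for blood, endothelial and neuronal cells summed to at most 2.49 RPKM. The cells are therefore called by their label only. ADAR, the siRNA target, was lower in KD in every same-numbered comparison, but the size varied. It was 62.9 and 67.8% lower in PARS-seq and 72.0% lower in RNA-seq. In Ribo-seq it was 80.0% lower in replicate 1 and 20.6% lower in replicate 2. The Ribo-seq libraries differed more between replicate numbers than between conditions. Pearson's correlation across 10882 genes was 0.773 between the control replicates, against 0.959 and 0.945 between control and KD of the same number. RPKM in Ribo-seq and RNA-seq were exact multiples of single reads. From these steps the libraries held 995682 and 3322918 reads in the Ribo-seq control replicates, 1404542 and 2405072 in the KD replicates, and 40729941 and 30209865 in RNA-seq control and KD. The PARS-seq RPKM are means over libraries, and the reads behind them were not recovered from the table.

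The members were not all measured alone. Rows of the table join the symbols of genes that overlap, and the length of a row could be recovered from the steps. MALAT1 (8707 bases), NEAT1 (3735 bases) and TUG1 (7104 bases) had rows of their own. H19 shared its row with the microRNA gene MIR675. GAS5 shared its row with 10 snoRNAs, SNHG1 with 8, SNHG12 with 4, SNHG5 with 2 and SNHG8 with 1. SNHG3 shared a row of 5122 bases with RCC1, the protein-coding gene for a chromatin-bound exchange factor of Ran, within whose span SNHG3 lies. Of 27 snoRNAs of these hosts that were looked up, 25 stood in a member's row. Reads from a host and from its snoRNAs, or from SNHG3 and RCC1, can therefore not be told apart in these values. Fewer RNA molecules per cell and fewer cells with the RNA cannot be told apart either.

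The members spanned levels from among the highest of the table to the middle of it. In PARS-seq control the order by mean was SNHG1 (600.4 RPKM), MALAT1 (598 RPKM), H19 (526 RPKM), NEAT1 (269 RPKM), GAS5 (248 RPKM), SNHG5 (207 RPKM), SNHG8 (114 RPKM), SNHG12 (73.8 RPKM), TUG1 (36.2 RPKM) and SNHG3 with RCC1 (19.97 RPKM). The replicates of SNHG1 and MALAT1 overlapped, as did those of NEAT1 and GAS5 and of GAS5 and SNHG5, and the other neighbours did not. In Ribo-seq control H19 led with a mean of 1791 RPKM and TUG1 was last with 6.93 RPKM. There, only H19 and the next member, SNHG12, and the last pair, SNHG3 and TUG1, did not overlap. In RNA-seq H19 was the highest of all 21574 rows in both libraries. NEAT1 followed among the members with 184 RPKM in control, and MALAT1 was the lowest member with 6.85 RPKM.

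**Figure D1:**
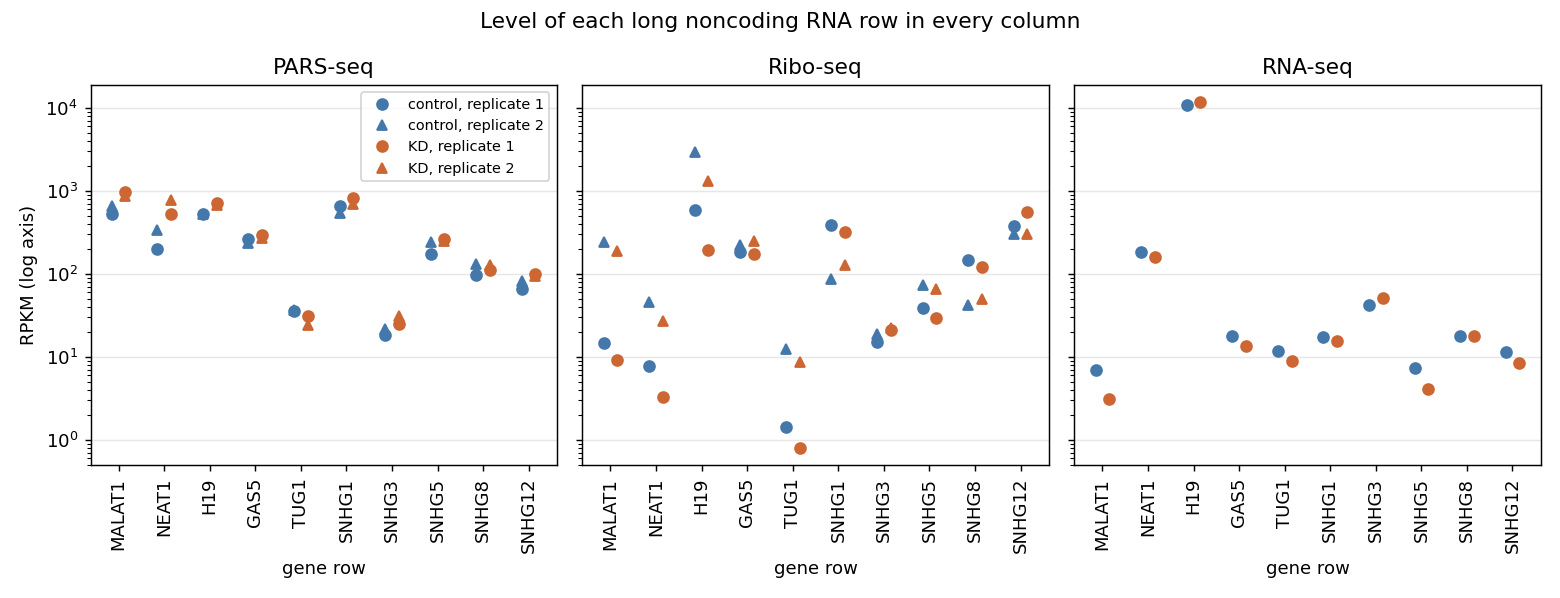
RPKM on a log axis for the 10 gene rows in each column of PARS-seq, Ribo-seq and RNA-seq, with control in blue, KD in orange, circles for replicate 1 and triangles for replicate 2. MALAT1 lies between 532.5 and 974 RPKM in PARS-seq but at 6.85 and 3.07 RPKM in RNA-seq, while H19 lies at 10738 and 11734 RPKM in RNA-seq.

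MALAT1 lies at chr11:65265111-65275544 on the plus strand (GRCh37, GENCODE), annotated as an lncRNA. Its RNA resides in nuclear speckles, is abundant in many cell types, and ends in a triple helix rather than in a poly(A) tail. In PARS-seq it stood at 532.5 and 664 RPKM in control and at 974 and 867 RPKM in KD, so that both KD values lay above both control values. The log2 difference was 0.63 ± 0.21 (SE, n = 2 per condition), with a 95% interval of 0.15 to 1.11, and it did not pass the test (limma, Benjamini-Hochberg adjusted p = 0.0777). It passed without control replicate 2, at 0.79 (limma, adjusted p = 0.0219), and when the trend of the variance with the mean was left out (limma, adjusted p = 0.0485). RNA-seq went the other way. There MALAT1 stood at 6.85 RPKM in control and 3.07 RPKM in KD, from 2429 and 808 reads, a ratio of 0.448 with a counting interval of 0.414 to 0.486. This log2 ratio was lower than that of all but 1.09% of 10946 genes. Intervals on reads cover counting error only, and the single RNA-seq libraries have no replicate check.

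In Ribo-seq MALAT1 depended on the replicate number. It stood at 14.6 RPKM (127 reads) in control and 9.08 RPKM (111 reads) in KD in replicate 1, and at 241 and 187 RPKM in replicate 2, from 6964 and 3924 reads. Replicate 2 was thus 16.4 times replicate 1 in control and 20.6 times in KD. The KD value was lower than the control value of the same number in both, with ratios of 0.62 (0.476 to 0.806) and 0.779 (0.748 to 0.81). Across replicates the groups overlapped, and the log2 difference of -0.50 had an interval of -5.18 to 4.19 (limma). It turned to 1.48 without control replicate 2 and to 1.61 without KD replicate 1.

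NEAT1 was the member that passed the test in PARS-seq. It lies 52099 bases upstream of MALAT1, at chr11:65190245-65213011 on the plus strand, and is the scaffold of paraspeckles, nuclear bodies that have been described to hold back RNAs edited in inverted repeats. Its annotated span is 22767 bases, while the row of the table covers 3735 bases, the length of the short isoform, whose sequence the long isoform also contains. NEAT1 stood at 199 and 340.3 RPKM in PARS-seq control and at 529 and 787 RPKM in KD. Both KD values lay above both control values, and the ratio was 2.66-fold in replicate 1 and 2.31-fold in replicate 2. The log2 difference was 1.31 ± 0.30 (SE, n = 2 per condition; 95% interval 0.62 to 2.00) and passed the test (limma, adjusted p = 0.0253). It was larger than that of 99.6% of the 11153 genes tested. Without the filter on low values, where 19048 genes were tested, NEAT1 kept its size but not the call (limma, adjusted p = 0.15). Without control replicate 2 the difference was 1.70, and without control replicate 1 it was 0.92.

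In RNA-seq and within same-numbered Ribo-seq libraries NEAT1 was lower in KD. RNA-seq held 184 RPKM in control and 161 RPKM in KD, a ratio of 0.875 with a counting interval of 0.858 to 0.891. Ribo-seq held 7.80 and 45.2 RPKM in the control replicates and 3.24 and 26.9 RPKM in the KD replicates. In replicate 1 these rested on 29 and 17 reads. The same-numbered ratios of KD to control were 0.416 (0.214 to 0.782) and 0.596 (0.51 to 0.694), but the groups overlapped and the difference of -0.89 did not pass the test (limma, adjusted p = 1.00). It turned to 0.31 without control replicate 2 and to 0.47 without KD replicate 1.

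H19, an imprinted lncRNA expressed from the maternal allele in fetal tissues and many tumours, lies at chr11:2016396-2025782 on the minus strand. The microRNA miR-675 is cut from its RNA, and MIR675 shares its row. The mature forms are shown because the H19 row is the only one of the 10 members that carries a microRNA, with the seed (bases 2 to 8) in capitals, from RefSeq (GRCh38.p14).
hsa-miR-675-5p: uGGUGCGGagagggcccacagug
hsa-miR-675-3p: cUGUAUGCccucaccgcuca

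H19 took 2.48% of all RNA-seq reads in control and 2.71% in KD, with 10738 and 11734 RPKM. The ratio of KD to control was 1.09, with a counting interval of 1.09 to 1.10. In control this was 20.5 and 20.3 times the level in PARS-seq, where H19 stood at 524 and 529 RPKM in control and 724 and 672 RPKM in KD. Both KD values lay above both control values, with a log2 difference of 0.40 ± 0.19 (SE; 95% interval -0.03 to 0.84), which did not pass the test (limma, adjusted p = 0.18). In Ribo-seq replicate 1 H19 stood at 597 RPKM in control and 193 RPKM in KD. In replicate 2 it stood at 2985 and 1313 RPKM. The ratios of KD to control were 0.324 (0.294 to 0.356) and 0.44 (0.429 to 0.452). The log2 difference of -1.40 was lower than that of all but 0.175% of 10882 genes, yet control replicate 1 lay below KD replicate 2, and the difference did not pass the test (limma, adjusted p = 1.00, 95% interval -4.72 to 1.91). The size depended on every library. It was -2.56 without control replicate 1, -0.24 without control replicate 2, -0.02 without KD replicate 1 and -2.78 without KD replicate 2. IGF2, the imprinted neighbour 124559 bases away that is expressed from the paternal allele, was at 0.00529 to 0.0127 RPKM in PARS-seq, at 0 to 0.149 RPKM in Ribo-seq and at 0.26 and 0.836 RPKM in RNA-seq, in a row shared with INS and MIR483.

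TUG1 lies at chr22:31365231-31375381 on the plus strand, and GENCODE annotates it as protein coding, and a small open reading frame has been described in it. It was the only member with both KD values below both control values in PARS-seq, with 36.2 RPKM in each control replicate and 30.8 and 24.4 RPKM in KD. The log2 difference was -0.39 ± 0.18 (SE) and did not pass the test (limma, adjusted p = 0.176). RNA-seq gave 11.6 RPKM in control and 8.83 RPKM in KD, a ratio of 0.758 (0.716 to 0.802). Ribo-seq gave 1.41 and 12.5 RPKM in control and 0.802 and 8.78 RPKM in KD. In replicate 1 these rested on 10 and 8 reads, with an interval of the ratio of 0.195 to 1.60, so that no difference was detectable there at this depth. In replicate 2 they rested on 294 and 150 reads, with a ratio of KD to control of 0.705 (0.575 to 0.861). Across replicates the groups overlapped, and the log2 difference of -0.44 had a 95% interval of -3.33 to 2.45 (limma).

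The snoRNA hosts follow. They are GAS5 (chr1:173827697-173838020, minus strand), named for its rise in growth arrest, SNHG1 (chr11:62619450-62623425, minus), SNHG3 (chr1:28832492-28837404, plus), SNHG5 (chr6:86360209-86388650, minus), SNHG8 (chr4:119199858-119206471, plus) and SNHG12 (chr1:28905050-28909644, minus). GAS5, SNHG1 and SNHG5 carry box C/D snoRNAs, which guide methylation of ribose, SNHG8 carries the box H/ACA snoRNA SNORA24, which guides pseudouridylation, and SNHG12 carries both kinds. Their transcription starts in RefSeq (GRCh38.p14) are shown because the 5′ TOP element lies there. Each window has 10 bases before the start and 20 from it on, on the transcribed strand, with the longest run of C and T in capitals.
GAS5, chr1:173869026-173869055, minus: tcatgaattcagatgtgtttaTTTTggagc
SNHG1, chr11:62855866-62855895, minus: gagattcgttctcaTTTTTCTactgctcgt
SNHG3, chr1:28505933-28505962, plus: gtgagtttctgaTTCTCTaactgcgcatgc
SNHG5, chr6:85678714-85678743, minus: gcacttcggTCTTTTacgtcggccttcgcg
SNHG8, chr4:118278752-118278781, plus: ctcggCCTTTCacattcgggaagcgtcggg
SNHG12, chr1:28581854-28581883, minus: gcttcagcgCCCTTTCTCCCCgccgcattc

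A run of at least 6 C or T stood in 5 of these 6 windows, and in 30.4% of the windows of all 35116 promoters in the table. The run of SNHG12 was the longest of the 6 with 12 bases, and GAS5 had 4. Over all 10 entries of members, hosts or not, 6 had such a run, among them a start of MALAT1 with 11 bases. A run is a match of letters and not a tested element, and RefSeq starts may not be the starts used in these cells.

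In PARS-seq, 5 of the 6 hosts had both KD values above both control values, as had 33.3% of the 11153 genes tested. GAS5 stood at 261 and 236 RPKM in control and 296 and 272 RPKM in KD, a log2 difference of 0.19. SNHG1 stood at 652 and 549 RPKM in control and 816 and 696 RPKM in KD, a log2 difference of 0.33. SNHG3 with RCC1 stood at 18.4 and 21.5 RPKM in control and 24.9 and 30.7 RPKM in KD, a log2 difference of 0.46. These differences had standard errors of 0.18 to 0.21 and none passed the test. SNHG5 stood at 172 and 242 RPKM in control and 266 and 252 RPKM in KD, a log2 difference of 0.35. SNHG12 stood at 65.1 and 82.5 RPKM in control and 98.8 and 94.4 RPKM in KD, a log2 difference of 0.39. Neither passed the test, with adjusted p-values from limma of 0.309 and 0.19. SNHG8 overlapped between the groups, with 96.6 and 131 RPKM in control and 110 and 128 RPKM in KD.

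RNA-seq levels were lower than PARS-seq levels for 5 of the 6 hosts, and higher for the row of SNHG3 with RCC1. GAS5 stood at 17.8 and 13.5 RPKM in control and KD, with a ratio of 0.756 (counting interval 0.678 to 0.842). SNHG5 stood at 7.26 and 4.11 RPKM, with a ratio of 0.566 (0.431 to 0.737), and SNHG12 at 11.4 and 8.36 RPKM, with a ratio of 0.731 (0.634 to 0.842). SNHG1 moved less, from 17.3 to 15.6 RPKM, and SNHG8 was level within counting error at 17.8 and 18.1 RPKM (ratio 1.02, 0.891 to 1.16). The row of SNHG3 with RCC1 was the only host row that was higher in KD beyond counting error, at 41.7 and 51.7 RPKM (ratio 1.24, 1.20 to 1.28).

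Ribo-seq gave hosts with high levels and no shared direction. SNHG12 had the highest mean, at 379 and 298 RPKM in control and 563 and 302 RPKM in KD. GAS5 stood at 182 and 223 RPKM in control and 175 and 249 RPKM in KD. SNHG1 stood at 389 and 86.7 RPKM in control and at 317 and 128 RPKM in KD, so that it was lower in KD in replicate 1 and higher in replicate 2. SNHG8 did the same with 147 and 42.5 RPKM in control and 121 and 50.4 RPKM in KD. SNHG5 stood at 38.5 and 74.2 RPKM in control and 29.4 and 64.9 RPKM in KD. The row of SNHG3 with RCC1 was the only one of the 10 with both KD values (21.0 and 22.2 RPKM) above both control values (14.9 and 18.9 RPKM).

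Counted over the 10 members, PARS-seq gave 8 with both KD values above both control values and 1 (TUG1) with both below. Over the 11153 genes with a mean of at least 1 RPKM, 33.3% were separated upwards and 27.1% downwards in this way. By the test, 1 of 10 members was called in PARS-seq, against 15.5% of all genes tested. The median log2 difference was 0.37 over the members and 0.04 over all genes. In Ribo-seq 1 member was separated upwards, against 10.7% of 10882 genes, and 0 downwards, against 7.12% of genes. Limma called 0 of the 10 members and 0 genes in all, 0% of those tested, while 43 genes and 0 members had an unadjusted p under 0.05. The median residual SD of a gene was 0.522 in Ribo-seq, against 0.168 in PARS-seq, so that a missing call in Ribo-seq does not show that a member was unchanged. In RNA-seq 7 members were lower and 3 higher in KD, and the log2 ratio had a median of -0.28, against -0.01 over all genes, and on the scale of RPKM + 1 no member was past 2-fold (0 of 10), against 1.73% of genes. MALAT1 was past 2-fold by the ratio of its RPKM, 0.448, and at -1.13 with 0.1 in place of 1 added to each RPKM.

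**Figure D2:**
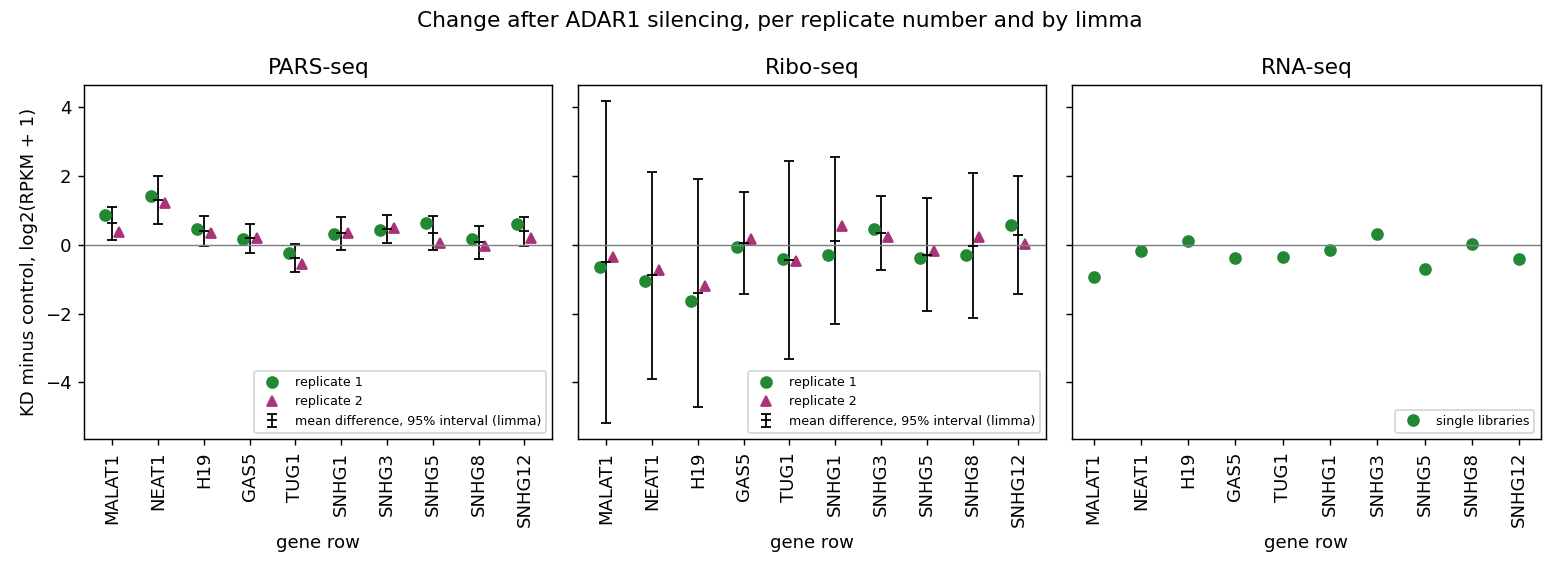
Difference between KD and control on the log2(RPKM + 1) scale for the 10 gene rows, with green circles for replicate 1 (in RNA-seq, the single libraries), purple triangles for replicate 2, and black bars for the limma estimate with its 95% interval. In PARS-seq the interval of NEAT1 runs from 0.62 to 2.00, while in Ribo-seq the interval of MALAT1 runs from -5.18 to 4.19.

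The effect of KD in Ribo-seq was set against that in PARS-seq in a single fit. NEAT1 had the largest difference between the assays among the members, with a log2 value in Ribo-seq minus PARS-seq of -2.20 (95% interval -5.63 to 1.24), lower than that of all but 0.0484% of 10339 genes. H19 followed with -1.81 (-5.20 to 1.59) and MALAT1 with -1.12 (-6.34 to 4.09). The snoRNA hosts ranged from -0.63 for SNHG5 to -0.10 for SNHG8. Limma called 0 members and 0% of genes for this difference, with 163 genes and 0 members at an unadjusted p under 0.05. The intervals hold 0 for every member. Leaving out a Ribo-seq library moved NEAT1 to between -3.56 (without KD replicate 2) and -0.84 (without KD replicate 1), and H19 to -3.19 and -0.43 without the same libraries.

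The gap between Ribo-seq replicates differed among the members. In control, MALAT1, TUG1, NEAT1 and H19 were 16.4, 8.81, 5.80 and 5.003 times higher in replicate 2 than in replicate 1, above 97.5 to 99.3% of genes on the log2 scale. In KD their ratios were 20.6, 10.9, 8.31 and 6.80. SNHG1 and SNHG8 went the other way, 4.49 and 3.46 times higher in replicate 1 in control and 2.48 and 2.39 times in KD. SNHG5 was 1.93 and 2.21 times higher in replicate 2 in control and KD, and SNHG12 was 1.27 and 1.86 times higher in replicate 1. GAS5 and SNHG3 with RCC1 differed by at most 1.42 times. The median of all genes was -0.24 in control and -0.09 in KD, and in PARS-seq no member differed between replicates by more than 1.71 times. What differed between the Ribo-seq replicates was not tested.

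**Figure D3:**
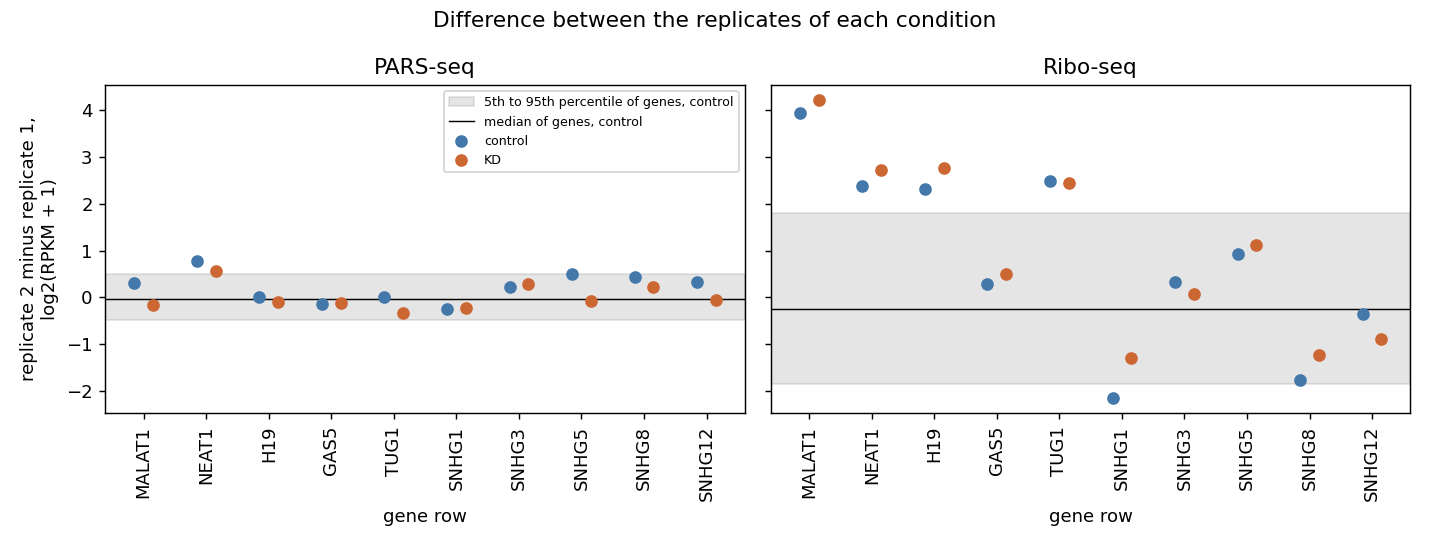
Replicate 2 minus replicate 1 on the log2(RPKM + 1) scale for the 10 gene rows, with control in blue, KD in orange, a line at the median of all genes and a grey band from the 5th to the 95th percentile in control. In Ribo-seq MALAT1 lies at 3.95 in control and 4.22 in KD, far above the band, and SNHG1 at -2.15 and -1.30.

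Ribo-seq and PARS-seq levels were next set against RNA-seq, as log2 ratios of RPKM + 1. In Ribo-seq over RNA-seq, 5 snoRNA hosts stood near the top of all genes. GAS5 lay at 3.28 and 3.57 in the control replicates, SNHG1 at 4.42 and 2.26, SNHG5 at 2.26 and 3.19, SNHG8 at 2.98 and 1.21, and SNHG12 at 4.93 and 4.59. In control each of them lay above 96.9% of 10142 genes or more, where the median gene was at -0.38 and -0.61. The row of SNHG3 with RCC1 lay at -1.43 and -1.10, below the median. NEAT1 (-4.39 and -2.00) and H19 (-4.17 and -1.85) were low, and their place also depended on the library. At most 0.0986% of genes were lower than either in control replicate 1, against 4.47% for NEAT1 and 6.47% for H19 in control replicate 2. MALAT1 moved from 1.00 in replicate 1 to 4.94 in replicate 2, and TUG1 from -2.39 to 0.09, so that their place depended on the library. The single RNA-seq library of a condition enters the ratios of both its replicates.

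PARS-seq over RNA-seq placed MALAT1 at the top. It lay at 6.09 and 6.40 in control and at 7.90 and 7.74 in KD, above 99.9% of 10158 genes or more in all columns. SNHG1 (5.16 and 4.91 in control), SNHG5 (4.39 and 4.88) and GAS5 (3.80 and 3.65) followed. H19 was near the bottom, at -4.35 and -4.34 in control, where at most 0.0984% of genes were lower. NEAT1 lay at 0.11 and 0.89 in control and at 1.71 and 2.29 in KD. Of the 10 members, 8 lay above the median of all genes in each PARS-seq column, the exceptions being H19 and SNHG3 with RCC1.

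**Figure D4:**
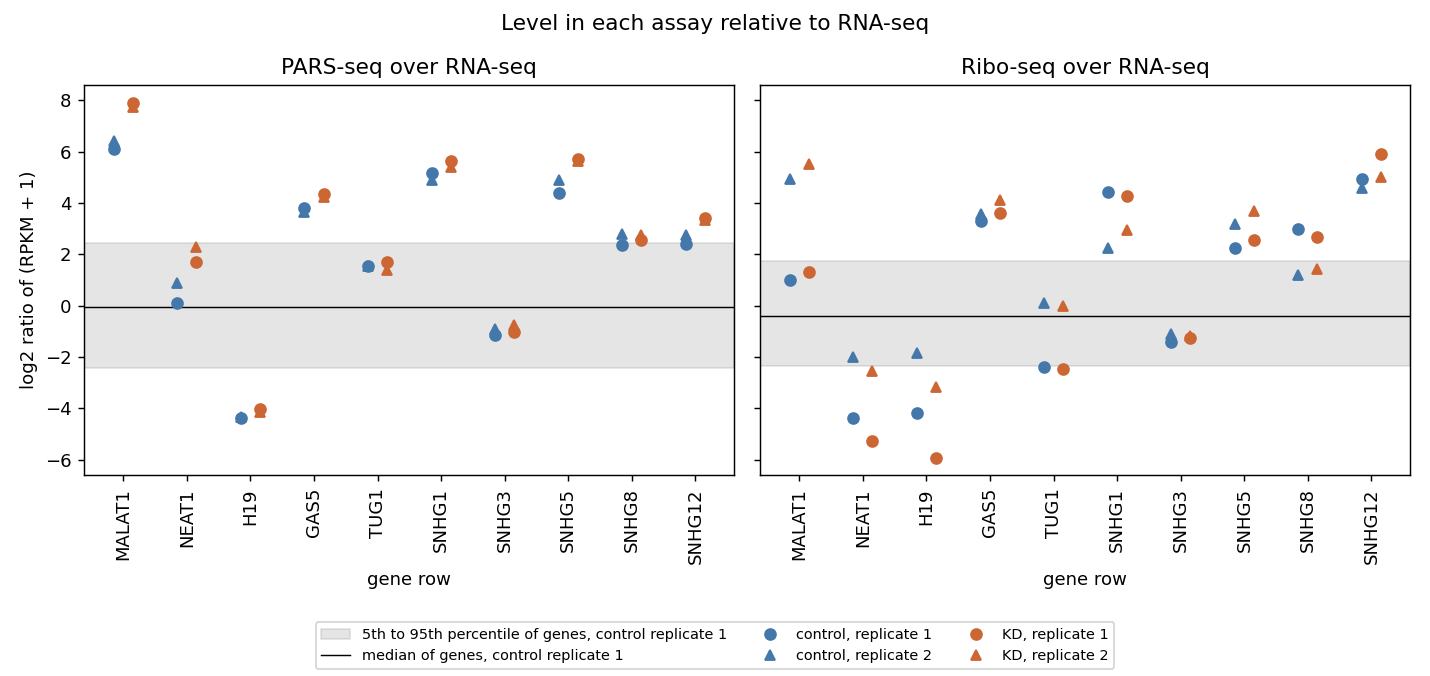
Log2 ratio of PARS-seq or Ribo-seq to RNA-seq (RPKM + 1) for the 10 gene rows, with control in blue, KD in orange, circles for replicate 1, triangles for replicate 2, and the median and the 5th to 95th percentile of all genes in control replicate 1 as line and band. MALAT1 reaches 7.90 in PARS-seq, while NEAT1 and H19 lie below -4 in Ribo-seq replicate 1.

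Read starts at single bases were analysed for SNHG8, the member whose symbol was paired with a UCSC transcript (uc003iby.3, 619 bases). The identifier comes from a list of transcripts that was chosen for structure in these same libraries, so that its profile is described without a test. The paper's list of paired-base ratios per transcript kept transcripts whose ratio differed between KD and control in the same direction in both replicates. A difference between control and KD in the profile is not independent of such a choice. Control libraries held 2177 and 2693 S1 read starts on SNHG8, against 2050 and 1845 in KD libraries. V1 read starts came to 2563 and 3082 for control, against 3401 and 3089 for KD. These are 2.98 to 5.49 read starts per base, and 40.9 to 53.0% of its bases had any. The enzymes differed in where reads started most often. S1 read starts were most frequent at base 4 or 5 from the 5′ end, which held 5.26 to 6.89% of the S1 read starts. Base 228 followed, where S1 reads started 88 and 142 times in control libraries and 82 and 73 times in KD libraries. V1 read starts were most frequent at base 289, which held 14.0 to 17.03% of them in the 4 libraries.

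Across the 619 bases, Spearman's correlation was 0.651 to 0.706 between replicates, 0.654 to 0.72 between control and KD of the same enzyme, and 0.17 to 0.261 between the enzymes. The first pair of ranges overlapped, and bases of 1 transcript are not independent. A score of log2 V1 over S1 was taken, with 1 added after scaling to equal totals. It was above 0 in both replicates at 170 bases in control and 163 in KD, and below 0 in both at 138 and 120. The totals include the transcript that held 26.0 to 59.3% of their read starts, so the point 0 of the score depends on it. The score was not computed without that transcript. Over the first 100 bases the control replicates had a mean score of -0.43 and -0.45 and the KD replicates of -0.18 and -0.07. Over bases 101 to 200 the control replicates had 0.62 and 0.48 and the KD replicates 0.64 and 0.43. Of the 6 segments of 100 bases, only the first had control and KD replicates that did not overlap, and the score was not tested. An exact permutation test of 2 against 2 samples cannot give a two-sided p under 0.333, and 6 segments were read.

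The total of read starts on SNHG8 did not pass a test between conditions. The log2 difference was 0.08 ± 0.23 (SE, n = 2 per condition) with S1 and 0.04 ± 0.21 with V1 (limma, adjusted p = 0.863 and 0.915), and their 95% intervals ran from -0.40 to 0.57 and from -0.46 to 0.54. Of the transcripts tested, 15.8% of 4721 were called with S1 and 10.9% of 4716 with V1. Scaled by library totals, the differences turned to -0.28 and -0.30.

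**Figure D5:**
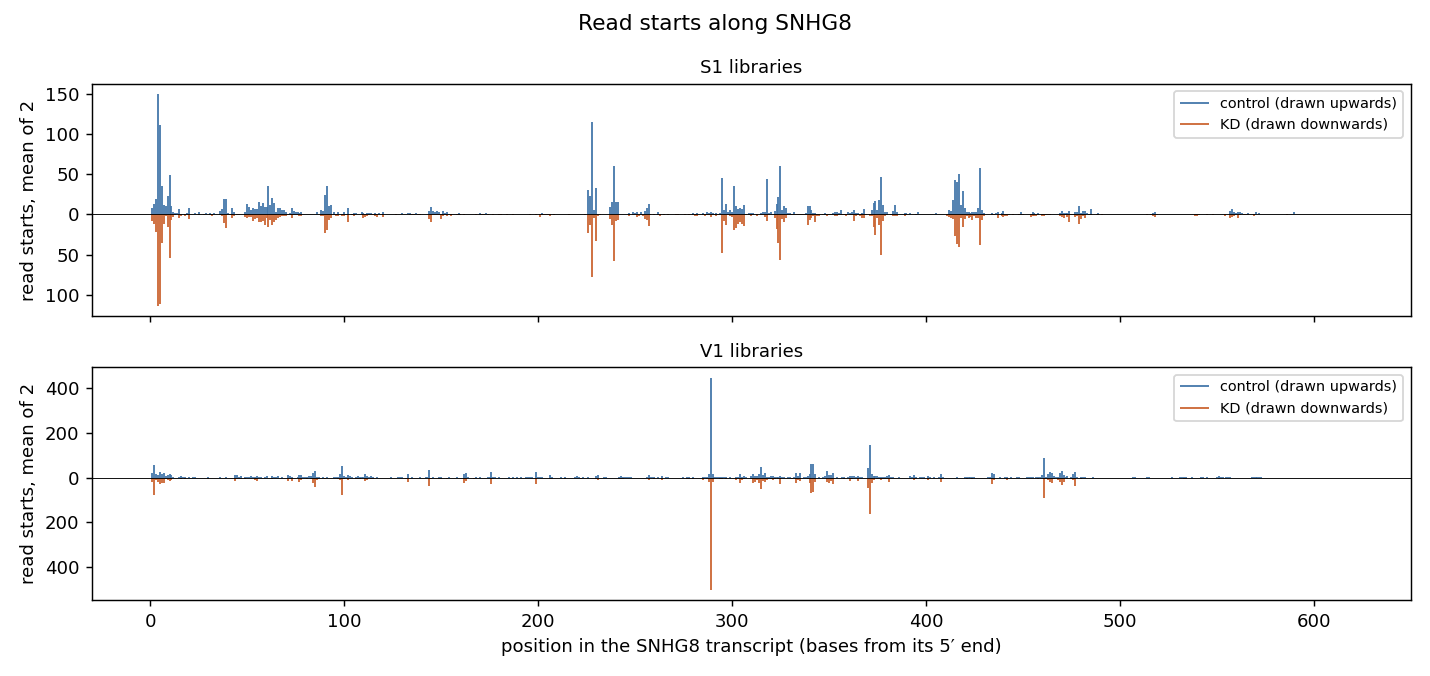
Mean read starts of the 2 replicates at each base of the SNHG8 transcript in S1 libraries (upper panel) and V1 libraries (lower panel), with control drawn upwards in blue and KD drawn downwards in orange. The highest S1 bases are 4, 5 and 228 and the highest V1 base is 289, in both conditions. Read starts are not scaled by library depth.

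Related genes were counted from lists. Over all 11153 genes tested in PARS-seq, 15.5% were called and 3591 had an unadjusted p under 0.05, and the counts below are read against these. Of 8 rows of other snoRNA hosts, 0 were called in PARS-seq by limma, with 2 at an unadjusted p under 0.05, and their median log2 difference was 0.26. The most abundant of them were SNHG6, with 138 and 135 RPKM in control and 138 and 147 RPKM in KD, and SNHG7, with 48.8 and 84.2 RPKM in control and 68.5 and 99.5 RPKM in KD. Of 36 protein-coding snoRNA hosts, among them the row of RCC1 with SNHG3, 3 were called higher and 1 lower, with a median of 0.05. DKC1, the pseudouridine synthase of H/ACA particles, rose from 73.3 and 116 to 156 and 189 RPKM. NOP56, a core protein of C/D particles, rose from 129 and 146 to 219 and 294 RPKM. NCL, which encodes nucleolin, rose from 286 and 392 to 548 and 652 RPKM. EIF4G2, a translation factor, fell from 163 and 155 to 82.3 and 72.8 RPKM. Their log2 differences were 0.89, 0.89, 0.83 and -1.03, with adjusted p-values from limma of 0.0458, 0.0274, 0.0412 and 0.00898.

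Of 13 other lncRNA rows that passed the filter, 1 was called higher and 2 lower in PARS-seq, with a median of -0.09. LINC00263 rose from 9.06 and 9.22 to 16.7 and 16.1 RPKM. MIR22HG, the host of miR-22, fell from 16.4 and 15.9 to 7.21 and 6.47 RPKM, and TP53TG1 fell from 6.06 and 4.37 to 2.30 and 1.92 RPKM (limma, adjusted p = 0.0147, 0.00385 and 0.00926). Of 10 factors of nonsense-mediated decay, the kinase gene SMG1 was the 1 called, from 6.28 and 6.79 to 12.3 and 10.4 RPKM (limma, adjusted p = 0.0235). Of 11 core paraspeckle proteins, the partners of NEAT1, 0 were called and 2 had an unadjusted p under 0.05, with a median of 0.25. The most abundant were TARDBP, at 604 and 1062 RPKM in control and 1004 and 1730 RPKM in KD, and SFPQ, at 262 and 398 RPKM in control and 461 and 577 RPKM in KD. In Ribo-seq 0 rows of these lists were called by limma, with 1 row, among the other lncRNAs, at an unadjusted p under 0.05.

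The genes whose log2(RPKM + 1) over the 10 columns was most like that of a member were found among 11370 genes. For MALAT1 they were SPIN1 (Pearson's r = 0.984), ANKRD28 (0.98) and MIER1 (0.979). For NEAT1 they were TTC7A (0.994), LOC150776 (0.991) and FAM212B (0.989). For H19 they were SPIRE2 (0.993), IQCE (0.993) and WTIP (0.991), and for GAS5 STK17B (0.99), TBL1XR1 (0.978) and a row of LOC100507246 with SNORD1A, SNORD1B and SNORD1C (0.977). The columns share assay and depth, so that these values describe likeness across assays as well as conditions. Among the members, SNHG8 and SNHG1 were most alike (r = 0.961) and SNHG8 and H19 least (r = -0.947).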

How the data were processed

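For RNA-seq, Ribo-seq and PARS-seq the authors deposited RPKM values on RefSeq genes of hg19, from uniquely aligned reads. For PARS-seq they averaged the S1 and V1 library of a replicate. The deposited per-base tables hold read starts (another unit, one number per base of UCSC transcripts), from Bowtie2 alignments. The submitters' processing notes also name cutadapt. No column held a comparison of the authors, and 0 columns of other samples were present.

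The members and lists were chosen with earlier results of these data known. Rows were matched by symbol, including joined symbols. log2(RPKM + 1) was fitted with limma (version 3.58.1, R 4.3.3, mean trend) on the genes whose mean reached 1 RPKM. Calls needed an adjusted p (Benjamini-Hochberg) under 0.05. Fold changes are on the log2(RPKM + 1) scale, which understates changes of low genes. Ratios of RPKM have counting intervals (exact Poisson or Clopper-Pearson, 95%) from reads recovered within 0.01 of a whole number. The smallest two-sided p of an exact permutation test of 2 against 2 samples is 0.333.

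Read starts of SNHG8 had been planned for a count test, but each deposited cell holds a string of numbers, so limma was run on log2 of scaled sums, with TMM computed from its definition, for transcripts in all S1 libraries with at least 10 read starts in 2 libraries. The tables of 7 libraries list 21052 to 22402 transcripts and that of S1 control replicate 1 lists 4722. Totals were 96618292 to 214584779 read starts.

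Named genes were the 10 members, ADAR, IGF2, up to 4 called genes of each list with the largest change (with 0 called, the 2 with the highest PARS-seq control level), and the 3 genes most like MALAT1, NEAT1, H19 and GAS5. Scripts were tested on simulated data, where the PARS-seq fit recovered most changed genes and the Ribo-seq fit recovered none, so that it has little power. Calculations used Python 3.11.15, numpy 2.4.6, scipy 1.17.1 and pandas 2.3.3, and figures matplotlib 3.10.9. Alternatives covered pseudocounts, filters, scaling, the pairing of replicates and leaving out each replicate.

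A marker of a fixed list is not reported here, and the sum of its list leaves it out.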

Additional observations from a re-analysis of the deposited data

How the results depend on the processing

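Among 11153 genes PARS-seq had 1 member called (NEAT1) and 1728 genes in all. Without the filter on low values these were 0 and 546, with the filter at 5 RPKM 1118 genes were called in all, and without the trend 2 members were. Leaving out a replicate in turn gave 1 to 2 members and 1154 to 2571 genes. When samples sharing a replicate number were fitted with a replicate block, 6 members (MALAT1, NEAT1, H19, TUG1, SNHG3 and SNHG12) and 5656 genes were called in PARS-seq, 143 genes in Ribo-seq and 1 gene for the difference of assays, with 0 members in the last 2. The labels do not say that the numbers pair the samples. Deviations of same-numbered samples correlated at 0.658 in PARS-seq and 0.811 in Ribo-seq over 2 pairs each.

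In RNA-seq, 375 genes and 1 member (MALAT1) were past 2-fold with 0.1 added to each RPKM, and 41 genes with 10 added. The members' median of Ribo-seq over RNA-seq in control was 2.41, and 2.51 with 0.1 added, 1.80 with 10 added, 2.10 with the filter at 5 RPKM, and 1.63 to 1.74 without a replicate. That of PARS-seq over RNA-seq was 2.59, and 2.05 with 10 added. The fits without a replicate of these ratios were chosen after seeing the data, and TUG1 in Ribo-seq ranged from -2.39 to 0.090 in them.

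Some uncalled log2 differences changed sign. In Ribo-seq, GAS5 became -0.0095 with columns scaled to equal medians and -0.21 after quantile normalization, which also gave SNHG1 -0.043. For the difference of assays TUG1 became 0.13 with 10 added. SNHG8 became -0.28 with S1 and -0.30 with V1 when scaled by library totals. Without a replicate, SNHG8 ranged from -0.14 to 0.29 in PARS-seq, from -0.18 to 0.34 in S1 and from -0.17 to 0.26 in V1 read starts. In Ribo-seq the ranges were -2.61 to 1.61 for MALAT1, -2.25 to 0.47 for NEAT1, -0.20 to 0.30 for GAS5, -1.68 to 0.80 for TUG1, -0.95 to 1.21 for SNHG1, -0.84 to 0.28 for SNHG5, -0.91 to 0.86 for SNHG8 and -0.15 to 0.74 for SNHG12. For the difference of assays they were -3.24 to 0.99 for MALAT1, -0.39 to 0.11 for GAS5, -1.29 to 1.19 for TUG1, -1.28 to 0.87 for SNHG1, -0.28 to 0.049 for SNHG3, -0.98 to 0.78 for SNHG8, -0.55 to 0.35 for SNHG12 and -0.89 to 1.32 for ADAR. A condition left with 1 sample was taken to vary like the other. The cause was not tested in any of these cases.

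Single RNA-seq libraries, Ribo-seq replicates that stand apart and few reads on TUG1 and NEAT1 in Ribo-seq replicate 1 limit these values. The planned count test and its DESeq2 alternative for SNHG8 were not run, since each of its values is a string of numbers along the transcript.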

Other observations

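The gap between the Ribo-seq replicates was also read for lists of related genes, on the log2(RPKM + 1) scale and as values without a test. Of 13 other lncRNA rows with a mean of at least 1 RPKM in Ribo-seq, 12 lay above the median of all genes for replicate 2 minus replicate 1 in control and 12 in KD, with medians of 1.49 and 1.56. The highest of these lncRNA rows was MIR17HG, at 2.91 in control and 4.08 in KD, in a row shared with its 6 microRNAs. The 8 other snoRNA host rows had medians of 0.16 and 0.03, from SNHG15 at -2.09 in control to SNHG6 at 1.17. The 35 protein-coding snoRNA host rows had medians of 0.0066 and 0.51, with 19 and 22 above the median of all genes, and RPL13A was the highest at 3.07 in control and 3.25 in KD. The 11 paraspeckle protein genes had medians of -0.89 in control and -0.24 in KD, and 1 of them, DAZAP1, lay above the median of all genes in control. The 10 genes for nonsense-mediated decay had medians of -0.51 and -0.21. The genes named for these lists here were chosen after their values were seen.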
